A study of Mus musculus with 4 samples.

Results

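Transcripts with a summed exon length below 300 bases were examined in RNAseq of 4T1 mammary tumors. They numbered 1353 of the 59227 transcripts listed over 3 libraries. There were 206 of 22481 (0.916%) in whole tumor under Control SMO, 302 of 31908 (0.946%) in whole tumor under LFPRLR SMO, and 845 of 4838 (17.5%) in sorted tumor Tregs. Each was grouped by the gene it overlapped in the GENCODE M21 annotation of GRCm38 (mm10). A transcript was placed in a small RNA class when the shared bases came to at least 50% of the shorter of transcript and gene, and otherwise on a protein-coding exon, another exon, an intron, or none of these.

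The 4T1 line derives from a Balb/c mouse mammary carcinoma, and a splice modulating oligomer (SMO) pairs with pre-mRNA and changes how it is spliced. The LFPRLR SMO is directed at the long form of the prolactin receptor. The hosts were Foxp3+EGFP Balb/c mice, 8 weeks old, that carried 4T1 tumors in the mammary gland. A first set was given Control SMO and the other LFPRLR SMO, each for 12 days at 100 pmoles/h/mouse. Whole tumors, or Tregs sorted by the green fluorescent protein of the Foxp3 reporter, were taken from 6 mice per group, the Tregs from additional mice, and the RNA of these mice was pooled, depleted of ribosomal RNA and made into 1 library. Every group is thus a single sample, there is no replicate check, and a ratio between libraries describes those libraries only.

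The Treg lists of both treatment labels held the same 845 short transcripts, equal in position, coverage and FPKM, and were counted as 1 tumor Treg library. Both name the Control SMO input in their header, so no treatment comparison was made in Tregs. Markers were checked over transcripts of all lengths. All 5 epithelial, all 6 monocyte and macrophage, all 4 fibroblast and all 3 endothelial markers were listed in each whole tumor library. Among sorted Tregs 0 of 8 Treg and T cell markers were listed, so that Foxp3, Cd4 and Cd3e were absent from the list, and 6 of 6 monocyte and macrophage markers were listed with a summed FPKM of 375. Of the other markers, 3 of 5 epithelial, 3 of 4 fibroblast and 0 of 3 endothelial ones were listed there, while whole tumor held Foxp3 and Ikzf2 under Control SMO and Ikzf2 under LFPRLR SMO. The name Treg below is therefore that of the label. In bulk RNA, fewer cells of a type and less RNA per cell cannot be told apart.

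Small RNAs of this length do much of the processing of other RNAs. Small nuclear RNAs (snRNAs) form the spliceosome, small nucleolar RNAs (snoRNAs) guide chemical modification and cutting of ribosomal RNA, and small Cajal body RNAs (scaRNAs) guide modification of snRNAs. RNase P and RNase MRP are RNA enzymes that trim transfer RNA and ribosomal RNA. Y RNAs bind the Ro protein, the vault RNA is part of the vault particle, and most mouse snoRNAs lie in introns of host genes from which they are released after splicing. A messenger RNA, by contrast, is seldom so short, and a short transcript on its exons can be a piece of it.

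To show what the short transcripts covered, the GENCODE M21 sequences of 8 small RNA genes found in the Control SMO tumor are printed 5′ to 3′. Capitals in the gene sequences mark the bases inside the assembled transcript. They were chosen as examples of the classes, some high in FPKM and some found in several libraries.
n-R5s185, 5S ribosomal RNA, chr4:53860652-53860770, plus strand: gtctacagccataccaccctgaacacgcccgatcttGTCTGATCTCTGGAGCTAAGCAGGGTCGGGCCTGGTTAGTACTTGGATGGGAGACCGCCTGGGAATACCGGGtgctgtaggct
Gm26325, a U6-type snRNA, chr7:12930774-12930880, plus strand: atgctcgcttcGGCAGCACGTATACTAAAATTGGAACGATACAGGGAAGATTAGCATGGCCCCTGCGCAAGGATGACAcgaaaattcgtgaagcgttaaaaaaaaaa
Rnu11, U11 snRNA of the minor spliceosome, chr4:132270080-132270213, minus strand: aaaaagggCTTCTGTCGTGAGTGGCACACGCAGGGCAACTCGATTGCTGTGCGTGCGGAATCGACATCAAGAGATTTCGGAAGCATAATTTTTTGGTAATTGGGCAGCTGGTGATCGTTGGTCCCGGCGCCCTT
Rny3, Y3 RNA, chr6:47781624-47781725, plus strand: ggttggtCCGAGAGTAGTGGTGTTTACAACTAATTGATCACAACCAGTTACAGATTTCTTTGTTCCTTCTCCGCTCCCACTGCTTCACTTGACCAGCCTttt
Rmrp, the RNA of RNase MRP, chr4:43492788-43493058, minus strand: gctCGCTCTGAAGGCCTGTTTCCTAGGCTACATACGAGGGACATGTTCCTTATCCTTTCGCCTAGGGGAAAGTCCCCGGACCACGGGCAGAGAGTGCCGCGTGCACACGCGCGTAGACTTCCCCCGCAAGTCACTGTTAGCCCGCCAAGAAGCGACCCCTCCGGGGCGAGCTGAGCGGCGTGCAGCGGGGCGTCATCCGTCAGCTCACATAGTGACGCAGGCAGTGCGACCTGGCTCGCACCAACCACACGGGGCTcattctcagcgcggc
Gm22988, a snoRNA in Eif4a1, chr11:69669635-69669778, minus strand: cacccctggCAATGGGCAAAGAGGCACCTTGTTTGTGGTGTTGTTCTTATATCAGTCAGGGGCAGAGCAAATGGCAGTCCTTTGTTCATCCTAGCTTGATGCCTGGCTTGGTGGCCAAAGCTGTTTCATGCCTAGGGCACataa
Gm25291, a snoRNA in Sec24a, chr11:51737779-51737922, minus strand: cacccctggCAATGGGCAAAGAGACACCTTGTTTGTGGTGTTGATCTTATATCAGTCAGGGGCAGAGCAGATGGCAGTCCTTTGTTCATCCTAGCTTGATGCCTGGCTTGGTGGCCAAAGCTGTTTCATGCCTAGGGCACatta
Snora73b, a snoRNA in Rcc1, chr4:132352322-132352526, minus strand: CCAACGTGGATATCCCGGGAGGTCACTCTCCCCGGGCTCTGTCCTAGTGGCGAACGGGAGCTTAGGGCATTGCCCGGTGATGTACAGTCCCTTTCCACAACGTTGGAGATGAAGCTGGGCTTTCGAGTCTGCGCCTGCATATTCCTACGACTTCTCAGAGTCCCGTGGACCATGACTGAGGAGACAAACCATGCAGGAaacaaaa

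The assembled transcripts matched these genes closely in some cases and in part in others. The Rmrp transcript covered 253 of 271 bases and that of Rny3 92 of 102. The U6-type gene Gm26325 was covered over 67 of 107 bases, and it shares 95 bases (88.8%) with Rnu6 in a global alignment. The Gm22988 and Gm25291 transcripts covered bases 10 to 140 of 2 genes that are identical at 140 of 144 bases, so reads of one could be counted on the other.

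By annotation, the whole tumor lists held few small RNAs among many exon and intron pieces. With Control SMO, 31 short transcripts lay on a small RNA gene, 71 on a protein-coding exon, 11 on another exon, 63 in an intron and 30 on none. With LFPRLR SMO the numbers were 36, 74, 11, 153 and 28. Intron transcripts were 30.6% of the short list under Control SMO and 50.7% under LFPRLR SMO, which was the class that differed most between the tumor lists. In tumor Tregs 187 (22.1%) lay on a small RNA gene and 464 (54.9%) on a protein-coding exon.

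**Figure D1:**
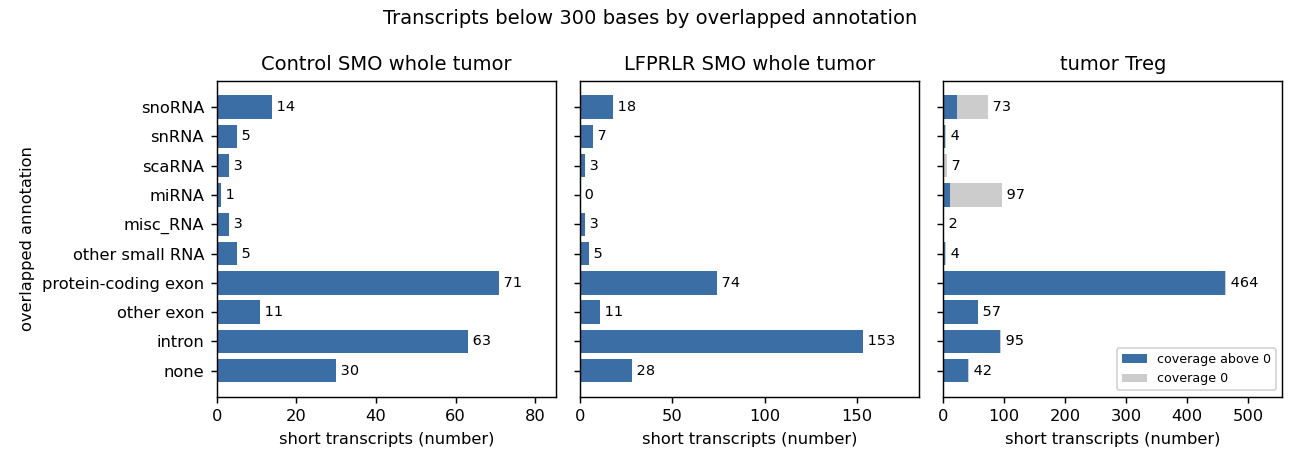
Number of short transcripts (x axis, a separate scale in each panel) by overlapped annotation (y axis) in each of the 3 libraries, with transcripts listed at coverage 0 in grey. Intron transcripts are 63 of 206 under Control SMO and 153 of 302 under LFPRLR SMO, and most of the 97 miRNA entries of tumor Tregs are at 0.

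Within the small RNA class, snoRNAs were the most numerous in tumor, with 14 in the Control SMO and 18 in the LFPRLR SMO library. There were 5 and 7 snRNAs, 3 and 3 scaRNAs, 3 and 3 misc_RNAs (Y RNAs and the vault RNA), 1 and 0 miRNAs, and 5 and 5 ribosomal RNA or ribozyme genes. The annotation holds 6115 small RNA genes. Of these, 54 had a short transcript above 0 in 1 library, 24 in 2 libraries and 3 in all 3: Snora73b, the scaRNA gene Gm22442 in Chd3, and Rprl2, a relative of the RNase P RNA. Of the genes found in at least 2 libraries, 16 lay inside a host gene on the same strand.

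The whole tumor lists give each transcript an FPKM (fragment number relative to length and to the size of the library), a coverage (mean read depth over its bases) and a lower and an upper 95% bound of the FPKM. For short transcripts these did not tally. The FPKM lay above its own upper bound for 193 of 206 short transcripts under Control SMO and 285 of 302 under LFPRLR SMO, and inside the bounds for 5.83% and 5.63%. For transcripts of at least 1000 bases it lay inside for 99.1% and 99.7%. The middle of the bounds (the bounds midpoint) is therefore given for the main short tumor transcripts.

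The gap between FPKM and bounds midpoint widened as transcripts became shorter. The median ratio of FPKM to midpoint, taken per transcript, was 1083 below 100 bases under Control SMO (22 transcripts) and 301 under LFPRLR SMO (23). It was 164 and 48.2 from 100 to 150 bases, 39.3 and 14.6 from 150 to 200, 7.40 and 5.26 from 200 to 250, and 3.82 and 3.27 from 250 to 300. It was 1.004 in both libraries from 1000 bases on. The source of this gap was not tested. Coverage followed FPKM and not the bounds. It stood at 1.01 and 0.998 per unit of FPKM below 100 bases, against 1.88 and 1.75 from 1000 bases on.

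In tumor Tregs, whose list was made by another program (StringTie), coverage was 0.947 per unit of FPKM in every length range. The median FPKM there was 3.15 from 200 to 250 bases, 3.27 from 250 to 300 and 3.37 from 300 to 500. From 200 bases on, short Treg transcripts thus had medians like that of the next longer ones, while the tumor medians fell from 231335 (Control SMO) and 9092 (LFPRLR SMO) below 100 bases to 22.7 and 17.7 from 250 to 300 bases. Values of whole tumor and Tregs were normalized separately and are set side by side only as a description.

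**Figure D2:**
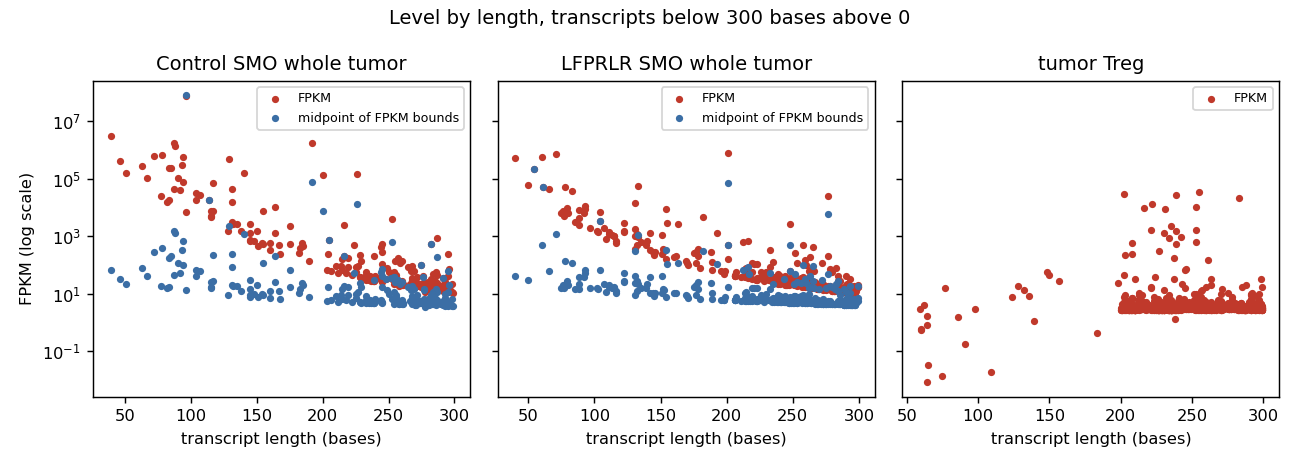
FPKM (red) and bounds midpoint (blue) on a log scale against transcript length in bases, 1 point per short transcript above 0, with no bounds given for tumor Tregs. In tumor both climb towards short lengths, the red more steeply, with median midpoints of 89.3 (Control SMO) and 37.2 (LFPRLR SMO) below 100 bases against 5.82 and 5.44 from 250 to 300. In tumor Tregs nearly all points start at 200 bases.

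Exceptions to the gap were few. FPKM did not exceed the upper bound in 13 short transcripts under Control SMO and 17 under LFPRLR SMO, and 10 and 13 of these were spliced. The spliced transcript of Rpl37, which encodes a protein of the large ribosomal subunit, had an FPKM of 543 with bounds of 488 and 599. A spliced H2-K1 transcript of 205 bases (a class I MHC gene) had an FPKM of 719 with a midpoint of 720.

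A handful of transcripts held most of the summed FPKM. Short transcripts took 99.4% of it under Control SMO, 87.2% under LFPRLR SMO and 13.5% in Tregs. The single highest transcript made up 85.5%, 24.0% and 20.1% of the short sum, and the 10 highest made up 97.4%, 92.8% and 93.0%. Small RNAs had 5.16%, 21.8% and 10.6% of the short sum, and protein-coding exons 0.187%, 0.325% and 1.03%. Of the summed bounds midpoint of short tumor transcripts, small RNAs had 0.00470% and 0.673%, and protein-coding exons 0.00329% and 0.432%. By FPKM, introns led under Control SMO (88.0%) and in Tregs (67.8%), and regions with no annotated gene led under LFPRLR SMO (72.0%). By midpoint introns had 99.8% under Control SMO, and regions with no gene 96.5% under LFPRLR SMO. The highest single midpoint in these classes was 77814291.9 and 221797. By bounds midpoint times length, the share of all transcripts was 96.0% under Control SMO, 7.03% without the transcript of highest FPKM, and 9.74% under LFPRLR SMO.

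By FPKM, a ribosomal RNA gene was the highest small RNA in each tumor library despite the depletion step. By midpoint under Control SMO, however, Rprl3 (1174), the miRNA gene Mir6236 (681) and Rmrp (609) lay above both ribosomal RNA genes described here. The 5S gene n-R5s185 had a 72-base transcript with an FPKM of 633057 under Control SMO and a 60-base one with 562231 under LFPRLR SMO. The bounds ran from 239 to 330 and from 431 to 558, so the bounds midpoint was higher under LFPRLR SMO (494 against 284) while FPKM was lower. The 5.8S gene n-R5-8s1 on chromosome 18 had a 39-base transcript of FPKM 3012351.3 under Control SMO and a 142-base one of 1286 under LFPRLR SMO, with bounds of 38.0 to 94.1 and 26.0 to 50.2. The bounds overlapped where the FPKM differed by a factor of over 1000. In Tregs neither gene had a short transcript.

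Among RNA enzymes, Rmrp stood at an FPKM of 4016 under Control SMO and 2724 under LFPRLR SMO. Its bounds, 572 to 646 and 451 to 524, did not overlap. Rmrp was listed at 0 in Tregs. Rprl3, which like Rprl2 resembles the RNA of RNase P (246 of 319 bases shared with Rpph1), had a 140-base transcript with a midpoint of 1174 under Control SMO and an FPKM of 180 in Tregs, with no short transcript under LFPRLR SMO. Rprl2 was in all 3 libraries, with midpoints of 12.4 and 20.4 in tumor and an FPKM of 1.34 in Tregs. Rprl2 and Rprl3 share 267 of 290 bases, so their reads can be hard to part.

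Few named snRNAs had a short transcript in tumor. Gm26325 (U6-type, of the major spliceosome) had midpoints of 41.4 under Control SMO and 63.6 under LFPRLR SMO. Rnu11 had 29.6 and 26.5 and was listed at 0 in Tregs. Rnu12, the U12 snRNA of the minor spliceosome, had a 78-base transcript under LFPRLR SMO (midpoint 133) and a 150-base one in Tregs (FPKM 43.5). With Control SMO it had no short transcript, and a longer one there had an FPKM of 83.1. For Gm26325 the FPKM went the other way, at 108463 and 42732.

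The Y RNAs and the vault RNA gave the same 3 misc_RNA genes in both tumor libraries. Rny1 had midpoints of 73.6 under Control SMO and 99.8 under LFPRLR SMO, in transcripts of 245 and 258 bases. They ran past opposite ends of the 112-base gene, at chr6:47788081-47788325 and chr6:47787918-47788175, and were not among the matched pairs. Rny3 had 51.8 and 41.3. Vaultrc5, on chromosome 18, had 18.6 and 28.3 in transcripts with the same 132 bases. None of these genes had a short transcript in Tregs, where the 2 misc_RNA genes were Gm24447 (FPKM 897) and Gm26315 (892).

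Among snoRNAs, Gm22988 led both tumor libraries. Its 131 bases were the same in each, with an FPKM of 44484 under Control SMO and 14558 under LFPRLR SMO and bounds of 212 to 268 and 263 to 332. Its host Eif4a1, a translation initiation helicase, had a highest long transcript of FPKM 55.3 and 52.4. The paralog Gm25291 had midpoints of 19.7 and 24.3. Snora73b, a snoRNA of ribosomal RNA processing, had midpoints of 50.4 and 54.4 in tumor. Its FPKM was 493 under Control SMO, 334 under LFPRLR SMO and 308 in Tregs. The highest long Rcc1 transcript had an FPKM of 2.33 under Control SMO. Snord17 had midpoints of 57.3 and 85.8 and was listed at 0 in Tregs, and Snora23 had 18.8 and 23.2, likewise at 0. Gm26224, inside the snoRNA host Gas5, had midpoints of 9.32 and 10.2 and an FPKM of 527 and 32.0. The highest long transcript of Gas5 had an FPKM of 42.0 and 74.6.

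Tumor Tregs had their highest snoRNA values on the U3 genes, which guide cutting of the ribosomal RNA precursor. Rnu3b4 had an FPKM of 2283, Rnu3b1 1673 and Rnu3a 602. With LFPRLR SMO, Rnu3a had a 193-base tumor transcript with a midpoint of 107 and an FPKM of 1274. No Rnu3 gene had a short transcript under Control SMO, but a longer one on Rnu3a there had an FPKM of 114. U3 copies are near-identical, and how their reads were split was not examined here.

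**Figure D3:**
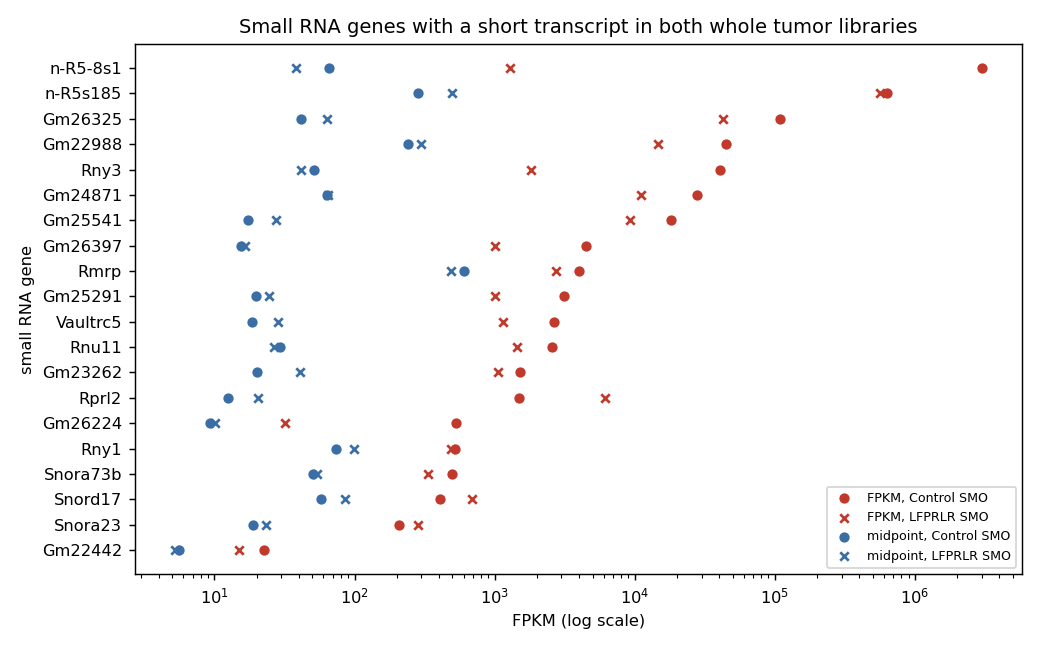
FPKM (red) and bounds midpoint (blue) on a log scale for the 20 small RNA genes with a short transcript in both whole tumor libraries, with circles for Control SMO and crosses for LFPRLR SMO. The blue symbols of a gene lie close together, while the red ones lie far apart for n-R5-8s1 and Rny3.

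Lists of known small RNAs were covered in part, counting only transcripts above 0. Of 22 annotated Rnu entries, 1 had a short transcript under Control SMO, 3 under LFPRLR SMO and 4 in Tregs. With any length the counts were 4, 3 and 5. Rnu3a and the Rnu3b genes each have overlapping entries, and the long Control SMO transcript of Rnu3a (FPKM 114) was counted under both of its entries. By gene, the tumor libraries thus held the same ones, Rnu11, Rnu12 and Rnu3a. Of 9 Scarna genes the short counts were 2, 0 and 1, and with any length 4, 5 and 1. There were 11 entries for other abundant small RNAs (7SK, 7SL, RNase P and MRP, telomerase, Y and vault RNAs), with Rmrp under more than 1 of them. Their short counts were 4, 4 and 0, and with any length 7, 7 and 5. Of 42 snoRNA host genes, 39, 37 and 32 had a transcript of any length, and 1, 1 and 5 a short one on their exons.

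Short transcripts on protein-coding exons came from 65 genes under Control SMO and 64 under LFPRLR SMO, of which 14 were the same (21.5% and 21.9%). They had a median bounds midpoint of 9.46 and 9.06. Spliced transcripts made up 37 of 71 under Control SMO and 25 of 74 under LFPRLR SMO. MHC genes gave 8 short transcripts from H2-Ab1, H2-Eb1, H2-K1 and H2-Q2 under Control SMO and 4 from H2-K1 and H2-Q2 under LFPRLR SMO. These genes have closely similar relatives, and reads could be split among them. Ribosomal protein genes gave 5 (Rpl37, Rps14, Rps27, Rps27a, Rps28) and 1 (Rps28). Rps28, whose messenger RNA is itself short, had transcripts of 295 and 277 bases with midpoints of 59.9 and 50.1, and a 298-base one with an FPKM of 32.1 in Tregs.

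Most genes with a short intron transcript held 1, as did 32 of 39 under Control SMO, 80 of 101 under LFPRLR SMO and 91 of 93 in Tregs, and a few held more. Trps1, a zinc finger repressor, held 18 under Control SMO, 10 under LFPRLR SMO and 1 in Tregs. They lay between 50691057 and 50884188 on chromosome 15 under Control SMO, inside a gene that spans 50654752 to 50890463, with midpoints of 3.79 to 14.1. Ccbe1, a secreted factor of lymphatic growth, held 2 and 11, and Asap1, an Arf GTPase-activating protein, held 6 under LFPRLR SMO and none under Control SMO. The midpoints of the Ccbe1 transcripts ran from 4.10 to 9.24 under LFPRLR SMO, and the highest long Ccbe1 transcript there had an FPKM of 9.83. Coro2a held 3 and 3, with midpoints of up to 113 and 107, while its highest long transcript under Control SMO had an FPKM of 0.953. Of the tumor genes, 20 were the same in both libraries (51.3% and 19.8%). Cd44, Il31ra, Rbm39 and Trps1 had one in all 3 libraries.

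The highest intron transcripts were far above their genes. In an intron of Cd44, the hyaluronan receptor, an 87-base transcript under Control SMO had a midpoint of 1521 and an FPKM of 1687664.9. A 133-base one under LFPRLR SMO had a midpoint of 1126 and an FPKM of 53414. A 222-base one in Tregs had an FPKM of 13484. In an intron of Il31ra, a cytokine receptor gene with no long transcript listed under Control SMO, the midpoints were 7351 and 5754. The FPKM of these Il31ra transcripts was 133895 under Control SMO, 24912 under LFPRLR SMO and 29076 in Tregs. The Treg transcript in Cd44 contained both tumor ones, and that in Il31ra lay inside the LFPRLR SMO one. Of the 63 and 153 tumor intron transcripts, 61 and 152 had no strand. Their sequence was not examined here.

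Of the 30 and 28 tumor transcripts on no gene, 29 and 23 had no strand. The highest by FPKM under Control SMO was at chr1:122357128-122357319, with 1783221.8 and bounds of 78633 to 79537. It was matched under LFPRLR SMO by a transcript at chr1:122357050-122357250, with an FPKM of 803897 and bounds of 71477 to 72347. By midpoint, another transcript on no gene was higher under LFPRLR SMO, at 221797. A transfer RNA gene for tyrosine, n-TYgta3 in RefSeq, lay under 1 such transcript in each tumor library, with midpoints of 8.73 and 7.26. The highest short transcript of Tregs, at chr18:68692062-68692316 with an FPKM of 34393, was also on no gene.

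The short list of Tregs was of 2 kinds. There were 177 transcripts with a reference name, with a median of 85 bases, of which 148 were listed at 0. The other 668 had no reference name, lengths of 200 to 299 bases and a coverage of at least 2.50, with a median of 3.03. All 169 transcripts below 200 bases were of the first kind. Of the 94 miRNA entries with a reference name, 85 were at 0, 8 were above 0 and below a coverage of 1, and 1 was above. Among the snoRNA entries with a reference name, 51 of 64 were at 0. A miRNA transcript without a reference name lay on Gm24187, with 231 bases against 57 in the gene and an FPKM of 8448.

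Short Treg transcripts on protein-coding exons came from 430 genes, and 338 of the 464 were spliced, against 3 of 187 on small RNA genes. Their median coverage was 2.99, close to the lowest coverage of a transcript without a reference name. The highest were on Rpl37a (FPKM 44.7 and 33.4) and Rplp0 (39.2), genes of ribosomal proteins. Of these 464, 394 (84.9%) shared at least 1 base with a transcript of the Control SMO tumor, but 3 (0.647%) had a short counterpart there over 50% of both.

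Sharing between libraries was measured by the best match over at least 50% of both transcripts. Of 206 short transcripts under Control SMO, 86 (41.7%) had a match of any length under LFPRLR SMO, against 60.6% of the longer ones. Of 302 under LFPRLR SMO, 87 (28.8%) had one under Control SMO, against 43.1%. Treg transcripts differed most from their longer counterparts, since 3.79% of the short and 51.9% of the longer ones had a match in the Control SMO tumor. With any shared base the Treg shares were 56.4% and 85.3%. Transcripts of 300 bases and over are described beside them without a test, since a fixed share of bases asks for fewer shared bases in a short one.

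**Figure D4:**
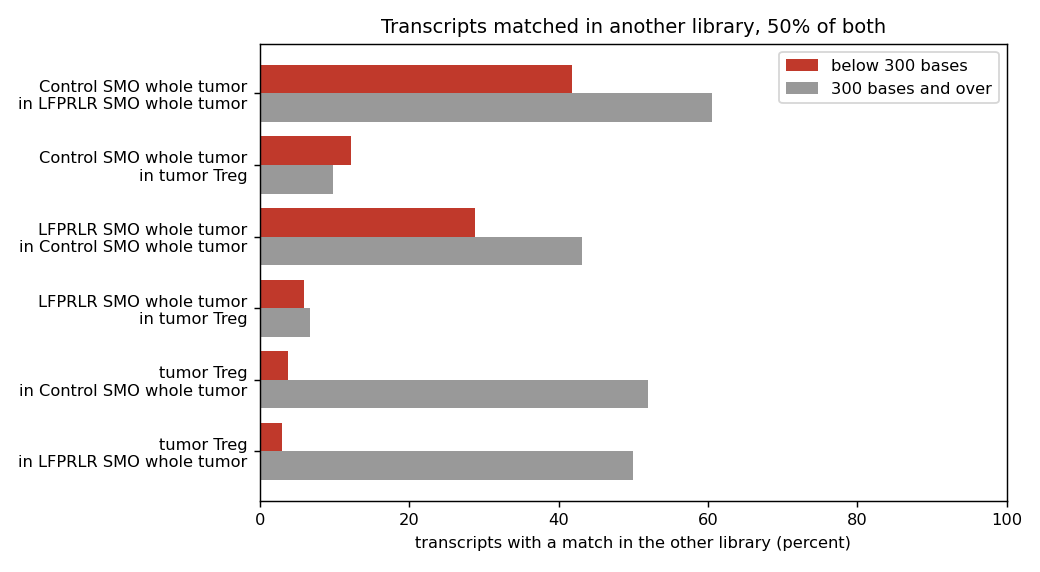
Percent of transcripts of the first-named library (y axis) with a match over at least 50% of both transcripts in the other library (x axis), for transcripts below 300 bases in red and of 300 bases and over in grey. The red bars are shorter than the grey ones except for Control SMO tumor in tumor Tregs (12.1% and 9.76%).

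With both transcripts short, 66 of 206 (32.0%) under Control SMO were matched to 66 of 302 (21.9%) under LFPRLR SMO. Small RNAs were shared most. A short match in the other tumor library was found for 18 of 31 (58.1%) and 18 of 36, against 15 of 71 (21.1%) and 15 of 74 (20.3%) on protein-coding exons and 19 of 63 (30.2%) and 19 of 153 (12.4%) in introns. In Tregs a short match was found for 12 of the 31 small RNA transcripts of the Control SMO tumor (38.7%) and for 1 of its 63 intron transcripts (1.59%). The Treg match was above 0 for 7 of these 12, and the rest were reference entries listed at 0. Over all classes, 21 transcripts of the Control SMO tumor had a short match in Tregs, 16 of them above 0. In all, 12 short transcripts of the Control SMO tumor shared a base with a short one in both other libraries. They were 7 on small RNA genes (3 above 0 in Tregs, with Snord17, Rmrp, Rnu11 and Snora23 listed at 0), those in Cd44 and Il31ra, and those on H2-Q2, Rps28 and the pseudogene Gm10499.

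The study set LFPRLR SMO against Control SMO, and the 66 matched pairs allow this for the same short regions. Coverage was divided by the coverage per unit of FPKM of transcripts of at least 1000 bases, which puts the libraries on 1 depth. By this depth-scaled coverage 33 of 66 were at least 2-fold lower under LFPRLR SMO and 8 at least 2-fold higher, with a median log2 ratio of -0.97. Over all 11769 matched transcripts of any length 9.08% were lower and 7.94% higher by that factor, with a median of -0.07. By FPKM 32 of the 66 were lower and 7 higher, against 9.25% and 7.83% of all matched transcripts. By the bounds midpoint 1 of the 66 was lower and 6 were higher by a factor of 2, with a median of 0.07, against 7.72% and 7.11% of all matched transcripts. The direction of the short transcripts as a group was thus set by which deposited value was read.

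Of the 33 pairs lower by coverage, 12 had a higher bounds midpoint under LFPRLR SMO. In 23 of 66 pairs the log2 ratios had opposite signs. The bounds of both libraries failed to overlap in 12 of the 66 pairs, 6 of them lower under LFPRLR SMO and 6 higher. The matching share over all matched transcripts was not examined here, so whether this number is high or low is not known. These bounds come from single libraries and leave out variation between mice.

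The ratio by coverage moved with length. Pairs below 100 bases under Control SMO had a median log2 ratio of -2.30 by coverage and -0.01 by midpoint (14 pairs), those of 100 to 200 bases -1.65 and -0.05 (24 pairs), and those of 200 to 300 bases 0.17 and 0.21 (28 pairs). Pairs whose transcript was longer under LFPRLR SMO had a median of -2.17 by coverage (28 pairs), and pairs whose transcript was shorter 0.21 (31 pairs). In the 7 pairs of equal length it was -1.68 by coverage and 0.07 by midpoint. The part of transcript length in the ratios was not tested.

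**Figure D5:**
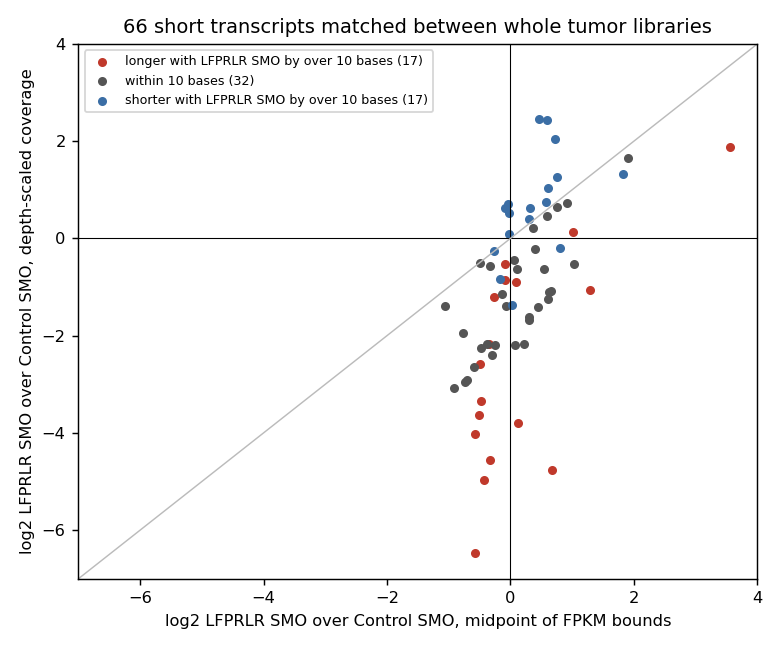
log2 ratio of LFPRLR SMO to Control SMO for the 66 matched short transcripts, by depth-scaled coverage (y axis) and by bounds midpoint (x axis), colored by the difference in length between the libraries, with a grey line of equality. Values run from -6.47 to 2.45 on the y axis and from -1.06 to 3.55 on the x axis, and the 5 lowest points on the y axis lie between -0.57 and 0.68 on the x axis.

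The largest falls by coverage were in pairs with unlike lengths. The transcript on no gene at chr2:90395130-90395192 fell by 6.47 on the log2 scale, with 63 bases against 122, and its midpoint ratio was -0.57. That in Cd44 fell by 4.97 (87 and 133 bases, midpoint -0.43), that in Gm48099 by 4.76 (85 and 154 bases, midpoint 0.68), Rny3 by 4.55 (92 and 131 bases, midpoint -0.33) and that in Gm40466 by 4.02 (168 and 268 bases, midpoint -0.57). All 5 were longer under LFPRLR SMO. Depth-scaled coverage of Rny3, for example, was 31557 against 1345.

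The largest rises were 2.45 in an intron of the pseudogene Gm21092 (227 and 139 bases), 2.43 in Gm21811 (225 and 144 bases) and 2.05 for Rprl2 (138 and 80 bases), all shorter under LFPRLR SMO, with midpoint ratios of 0.47, 0.60 and 0.72. The next were 1.88 in an intron of Chl1, a cell adhesion gene, and 1.66 on A430078G23Rik, whose lengths were 164 and 182 and 255 and 265 bases. For these the midpoint rose too, by 3.55 and 1.91. Bounds of the Chl1 transcript were 17.6 to 33.8 under Control SMO and 271 to 332 under LFPRLR SMO, and those of A430078G23Rik 17.4 to 32.1 and 79.5 to 107. The transcript on no gene at chr18:85698199-85698291 rose by 1.32 by coverage and 1.82 by midpoint.

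By class, 9 of 18 small RNA pairs were lower and 1 higher by coverage, with a median of -0.97. By midpoint 0 were lower and 1 higher, with a median of 0.31, against 7.72% and 7.11% of all matched transcripts. The 1 higher was Gm23262, a snoRNA in Eif4g2 (bounds 12.0 to 28.1 against 27.2 to 54.4, log2 ratio 1.03). Without a factor, the midpoint was higher under LFPRLR SMO in 14 of 18 small RNA pairs. It was so in 12 of 19 intron, 5 of 15 protein-coding exon, 1 of 4 other exon and 3 of 10 no-gene pairs. The share over all matched transcripts was not examined here. For protein-coding exons 7 of 15 were lower and 1 higher by coverage and 1 lower and 2 higher by midpoint. Capg, an actin-capping protein gene, was the one lower by midpoint (17.5 against 8.42, log2 ratio -1.06). For introns 7 of 19 were lower and 5 higher by coverage, and 0 and 2 by midpoint.

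At the edge of the length limit, the FPKM of transcripts on both sides overlapped. The 1 transcript of 299 bases under Control SMO had an FPKM of 10.97, and the 2 of 300 bases had 10.8 and 55.3. With LFPRLR SMO the 3 of 299 bases had a median of 17.6 and the 4 of 300 bases 11.8. In Tregs the 12 of 299 bases had a median of 3.03 and the 2 of 300 bases 3.40.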

How the data were processed

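RNA pooled from 6 mice per group gave 4 libraries, depleted of rRNA. The authors deposited transcript lists on mm10 with other values per transcript: FPKM, coverage and, for whole tumor (Cufflinks), lower and upper 95% FPKM bounds. Tumor Treg lists came from StringTie 1.2.3 with a reference. The submitters' processing notes also name HISAT2 2.0.4 and Cuffdiff 2.0.2. Read counts and depth are not given in the sources used here, so no count test was possible, and with 1 library per group no test was made.

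Transcripts below 300 bases were classed by GENCODE M21 (GRCm38). Libraries were matched by shared bases of at least 50% of both transcripts, reciprocal best for ratios. Called means a factor of 2. Genes named were the highest by FPKM and coverage per library and class, small RNA genes in at least 2 libraries, and the 5 largest rises and falls. Members and lists were chosen with earlier results of these data known. Matching and classes were tested on simulated data. Python 3.11.15, Biopython 1.88 and matplotlib 3.10.9 were used. No genome sequence was used, so base composition and repeats of the transcripts were not analysed here. Some members are not reported here.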

Additional observations from a re-analysis of the deposited data

How the results depend on the processing

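No paired analysis was possible because each group is 1 pooled library, and for the same reason no library was left out. Alternatives with the bounds midpoint, other pair sets, a coverage above 0 and RefSeq genes were chosen after seeing the data.

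The median log2 ratio of the matched pairs, -0.97, reversed to 0.065 with the bounds midpoint, which cut the number lower from 33 to 1. The median was -0.91 with FPKM, -1.08 with deposited coverage, -0.89 (49 pairs, 3 higher) with 80% overlap, -0.90 after centring, -0.97 with a pseudocount of 1, -0.56 with at least 1 short transcript (103 pairs, 22 higher), -1.31 within 10 bases of length (32 pairs, 1 higher, 20 lower) and -0.59 without transcripts below 100 bases (50 pairs, 20 lower). A factor of 3 left 5 higher.

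Limits of 200 and 400 bases gave 64 and 567 short transcripts under Control SMO, 83 and 933 under LFPRLR SMO and 169 and 1283 in Tregs. A coverage of at least 5 left 102 in Tregs, 27 of them small RNAs. The limit of 200 bases left 18 small RNAs under Control SMO. Treg transcripts shared with the Control SMO tumor fell from 20 to 12 and with the LFPRLR SMO tumor from 15 to 9 at a coverage of at least 5, and the latter to 8 with 80% overlap.

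The short share of FPKM under Control SMO was 96.0% without the highest transcript, 99.1% below 200 bases and 99.6% by midpoint. With LFPRLR SMO it was 83.8%, 65.3% and 54.3%. In Tregs it was 11.1% and 0.0185%, and 16.2% without chrM and the 45S locus. The share of coverage times length, 92.5%, 36.0% and 2.40% as deposited, was 64.8%, 91.7% and 96.0% under Control SMO and 23.8%, 18.4% and 9.74% under LFPRLR SMO in the same order. In Tregs it was 1.89% without the highest transcript, 0.00194% below 200 bases and 9.01% without chrM and the 45S locus.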
